A study of Mus musculus with 11 samples.

Results

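The genes described here are 109 mouse genes that the authors listed as regulators of cell motility in primary enteric glia and that stand in none of their tables of gliosis, cytokine response and MAPK (mitogen-activated protein kinase) genes. The authors' motility table lists 176 genes, of which 64 are also in at least 1 of the other 3 tables and 3 more were left out by name. Together the authors' 5 tables of transcripts hold 1967 genes. Each gene is given by its transcript with the largest total over all libraries, out of 190 listed transcripts of these genes. The members were thus chosen by their place in tables that the authors selected on the difference between ATP and Control in these same cultures, and this difference is given below as a description without a test.

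Cultured enteric glial cells of BL6 mice (msEGCs; C57BL/6 in the study's methods), the glia of the nervous system of the gut, were compared after 6 h with 100 µM ATP (6 libraries, named ATP) and without it (5 libraries, named Control). Polyadenylated RNA was sequenced from its 3′ end with the QuantSeq 3′ mRNA-Seq kit. The treatment field of the labels names ATP for all 11 libraries, so the groups come from the library titles. The sources used here do not state how many animals gave each culture or whether animals were pooled, and cultures made from gut muscle also hold cells other than glia. Library codes fall into runs of numbers, some of which hold libraries of 1 group alone, so such runs and the treatment cannot be told apart.

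The deposited tables hold 1 authors' mean per group and 1 total for each transcript, and no value of a single library. There is therefore no standard deviation, no library can be left out, and library depth cannot be given. Every mean below is the authors' mean in units of a signal that, judged from its values, appears scaled for library depth, called units, and every fold is the ratio of the 2 means. A gene is said to be past 2-fold when this ratio is at least 2 in either direction. In bulk RNA, fewer cells of a type and less RNA per cell cannot be told apart. Because reads come from the 3′ end, transcripts with the same last exon are hard to separate, and a transcript name is the assignment of the authors.

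A cell moves by pushing out its front with actin filaments, gripping the substrate through focal adhesions, where integrins are tied to actin, and releasing its rear. Small GTPases switch these steps on and off, and GTPase-activating proteins (GAPs) end their signal. Secreted guidance cues of the Slit, neurotrophin and Wnt-modulator families steer cells and growing processes, and transcription factors such as SLUG set the gene programme of motile cells. In the developing gut, neural crest cells, the precursors of enteric glia, migrate under the influence of GDNF and its receptor RET. The label of the table is broader than these roles. Only 56 of the 109 genes have a textbook role in adhesion and the cell surface, guidance, the cytoskeleton and nuclear envelope, or transcription, and 53 are better known for Wnt, TGF-beta and Notch signalling, for kinases and growth control, for ubiquitin and SUMO, for calcium, redox and metabolism, or for RNA and other roles.

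Of the 109 genes, 60 (55.0%) had a higher mean after ATP and 49 a lower one. The share with a higher mean was 49.0% of the 1874 genes and 47.9% of the 303 genes of the wider sets described next. The shares of the 1874 genes are given again beside the counts of the role groups below. At least 2-fold higher were 15 genes (13.8%), beside 18.3% of the 1874 genes in the 4 depth-scaled tables and 10.6% of the 303 genes in the motility, cytokine and MAPK tables. At least 2-fold lower were 18 genes (16.5%), beside 30.0% of the 1874 genes and 26.7% of the 303 genes. The other 67 genes of the motility table had 11.9% higher and 25.4% lower. These tables are selections made by the authors and include the 109 genes, so the shares are a frame of reference and were not tested. The authors list 1829 genes as significant. For the 109 genes, the transcript used is listed as significant in 77, among them all 33 past 2-fold. The sets thus differ in how they were selected, and the part of this in the shares was not tested. The median log2 ratio was 0.41 in the 109 genes and -0.48 in the 1874 genes. Few of the 1874 ratios lie near 1, as 866 were at least 1.5-fold higher and 925 at least 1.5-fold lower. Both medians fall in this sparse range, where a small change in the share above 1 (55.0% and 49.0%) can move a median far. Their distance is therefore not a measure of a common shift. After centring on the median of the 1874 genes, the split of 15 higher and 18 lower becomes 44 higher and 9 lower, with the same limit. The 109 genes have no unscaled counts of their own. A median factor of 1.16 (0.21 on the log2 scale) between unscaled and scaled ratios was taken from 49 other transcripts. When every ratio is multiplied by it, the split of 15 higher and 18 lower becomes 22 higher and 16 lower. Of the 109 ratios only that of Csnk1a1 then crosses 1.

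**Figure D1:**
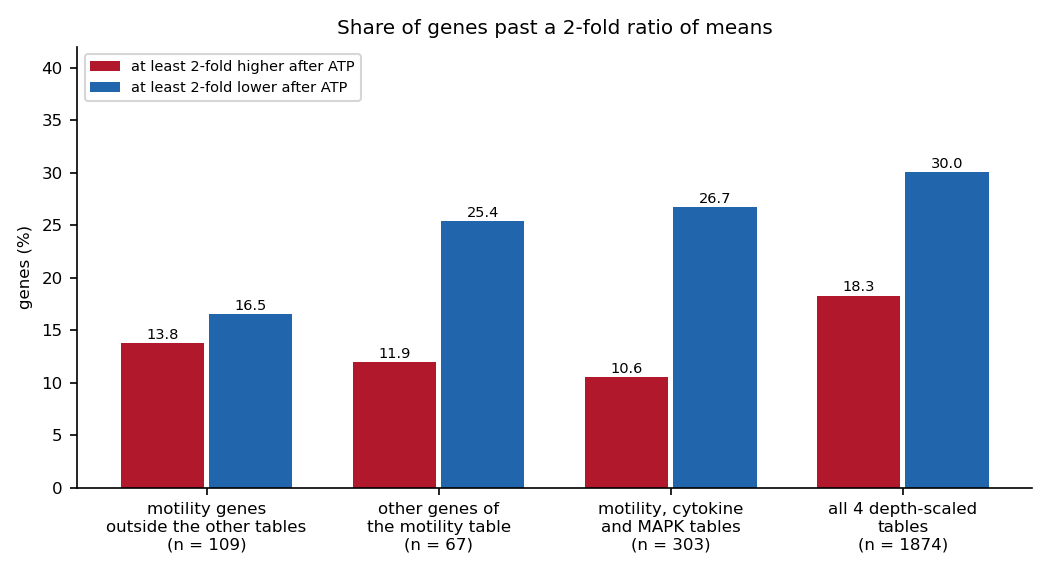
Share of genes (%, vertical axis) whose authors' mean was at least 2-fold higher (red) or at least 2-fold lower (blue) after ATP than in Control, in the 109 motility genes and in 3 sets for reference, 2 of which include them. The 109 genes had 13.8% higher and 16.5% lower, while all 1874 genes had 18.3% and 30.0%.

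The 33 genes past 2-fold differed in level as well as in direction. In the 15 higher genes, the median of the authors' means was 13.1 units after ATP and 4.50 units in Control. In the 18 lower genes it was 11.9 units after ATP and 38.0 units in Control. Both means were under 10 units in 10 of these 33 genes, 6 of them higher and 4 lower, against 20 of all 109 genes. Of the 30 genes with a total of at least 500, 13 were higher and 17 lower after ATP, with a median log2 ratio of -0.36, whereas of the 79 genes with a smaller total 47 were higher and 32 lower, with a median of 0.48. Genes with large totals thus lay more often below 1, and the part of signal level in this split was not tested. The threshold of 2 itself falls among close values. Just inside it were Arntl, 2.04-fold higher, and Nr3c1, 2.0-fold lower, and just outside it were Fam89b, 1.94-fold higher, and Nlrx1, 1.99-fold lower. When 1 unit is added to each mean, 4 of the 15 higher genes come within 2-fold, Gprc5a at 1.86-fold, Otud3 at 1.95-fold, Dyrk3 at 1.59-fold and Arntl at 1.78-fold, and 1 of the 18 lower genes does, Nr3c1 at 1.96-fold.

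**Figure D2:**
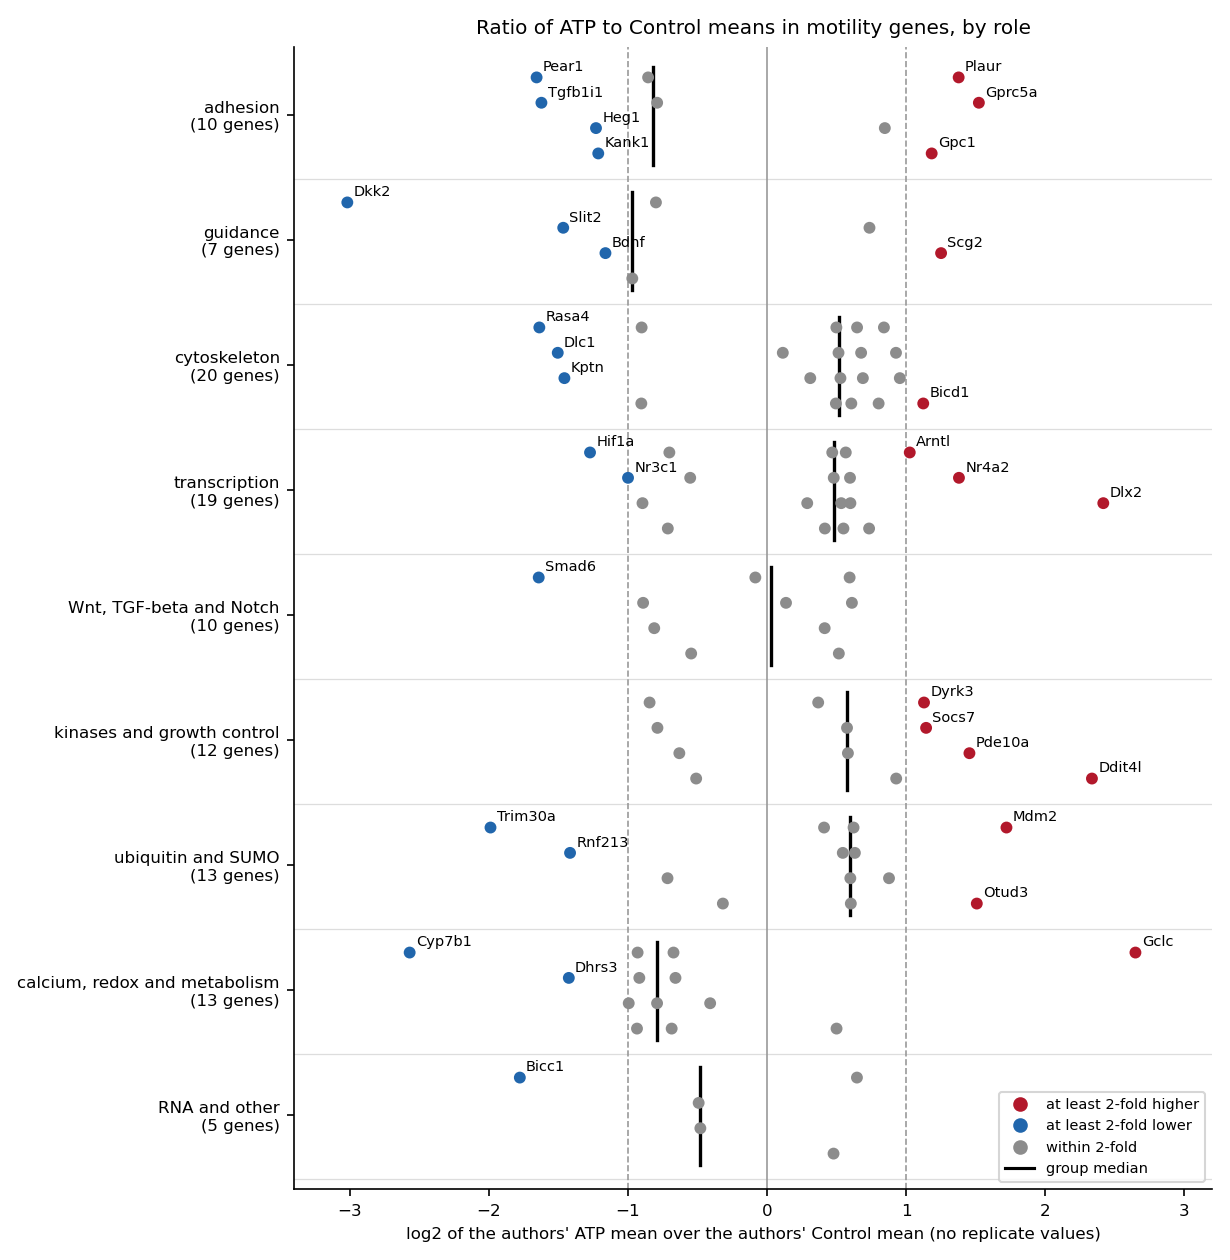
Log2 of the authors' ATP mean over the authors' Control mean (horizontal axis) for each of the 109 genes, in 9 groups by role, with genes past 2-fold named and a black bar at each group's median. Adhesion, guidance and the calcium, redox and metabolism genes have their medians near -0.8 or below (-0.82, -0.97 and -0.79), and cytoskeleton, transcription, kinase and ubiquitin genes near 0.5 (0.52, 0.48, 0.58 and 0.60).

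Promoters were searched for response elements of signal-induced transcription factors, since the members past 2-fold include signal-induced genes such as Nr4a2, Scg2 and Plaur. Sequences are shown only for genes with such an element, and Nr4a2 is not among them. The search covered 250 bases before to 50 bases after the RefSeq gene start (GRCm38.p6), which was given for 86 of the 109 genes. The cyclic AMP response element TGACGTCA reads the same on both strands and was found in 4 of the 86 genes (4.65%), beside 2.03% of 27025 RefSeq genes. The AP-1 element TGACTCA, searched on both strands, was found in 6 of 86 genes (6.98%), beside 5.95% of the RefSeq genes. Neither motif contains the other. Of the genes past 2-fold, 11 higher and 13 lower ones had a promoter. TGACGTCA was found in 1 of the 11 and 1 of the 13, and TGACTCA in 1 of the 11 and 0 of the 13. The 4 windows with TGACGTCA and 3 of the 6 with TGACTCA follow, each in the direction of its gene with the motif in capitals.
Scg2, chr1:79440076-79440105, minus strand: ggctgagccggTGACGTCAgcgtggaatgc
Senp2, chr16:22009398-22009427, plus strand: gcggaagaaggTGACGTCAacggcttctag
Ppm1a, chr12:72761064-72761093, plus strand: gcgcagggcagTGACGTCAccgccgcccct
Kptn, chr7:16119864-16119893, plus strand: ccgcagcttctTGACGTCAtcagtatgcgc
Plaur, chr7:24462403-24462432, plus strand: acccctggagcTGACTCActctttagcaaa
Elf1, chr14:79515640-79515669, plus strand: agtttcatgtgTGACTCAtaagctgagcag
Lmna, chr3:88503303-88503324, minus strand: ctggctgtcagTGACTCAgtgt
The genes with TGACGTCA did not share a direction. Scg2, Senp2 and Ppm1a had higher means after ATP and Kptn a lower one. The other genes with the AP-1 letters were Hdac7, Nedd4 and Sac3d1, so this group too held both directions, with Plaur, Elf1, Lmna and Sac3d1 higher and Hdac7 and Nedd4 lower. A match of letters is not a binding site, and binding was not measured.

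Among the 10 genes of adhesion and the cell surface, 6 had a lower mean after ATP, 4 of them past 2-fold, and 4 had a higher one, 3 of them past 2-fold. Of the 1874 genes, 49.0% had a higher mean, 18.3% were past 2-fold higher and 30.0% past 2-fold lower. The 3 focal adhesion adaptors of this group were on the lower side. Tgfb1i1, which encodes the paxillin relative Hic-5, averaged 17.9 units after ATP and 55.2 units in Control, 3.08-fold lower. Kank1, an adaptor at the rim of focal adhesions, averaged 9.72 units after ATP and 22.6 units in Control, 2.32-fold lower. Its relative Kank2 averaged 84.3 units after ATP and 152 units in Control, which was 1.81-fold lower and within 2-fold. The third family member in the tables, Kank3, is not one of the 109 genes and was named after its values were seen. It averaged 1.53 units after ATP and 4.36 units in Control, so all 3 listed Kank genes had the lower mean after ATP.

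Of the surface receptors, Heg1, a transmembrane protein of cell junctions, averaged 90.9 units after ATP and 213 units in Control, 2.35-fold lower. Pear1, an aggregation receptor first described in platelets and endothelium, averaged 3.74 units after ATP and 11.8 units in Control, 3.15-fold lower. The Hedgehog co-receptor gene Gas1 averaged 24.6 units after ATP and 42.6 units in Control, 1.73-fold lower. The opposite direction was seen for a separate set of surface proteins. Plaur, the receptor that concentrates the protease urokinase on the cell surface, averaged 4.54 units after ATP and 1.75 units in Control, 2.6-fold higher. Gpc1, a heparan sulphate proteoglycan that binds growth factors, averaged 13.1 units after ATP and 5.75 units in Control, 2.27-fold higher. Gprc5a, an orphan G protein-coupled receptor, averaged 2.45 units after ATP and 0.852 units in Control, 2.87-fold higher. Its total of 19.0 over all libraries was among the smallest of the 109 genes. Vasn, a membrane protein that binds TGF-beta, averaged 30.8 units after ATP and 17.1 units in Control, 1.80-fold higher.

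The 7 secreted factors of the guidance group held the largest decrease among the 109 genes, and 5 of the 7 had a lower mean after ATP. Of the 1874 genes, 49.0% had a higher mean and 30.0% were past 2-fold lower. Dkk2, a secreted modulator of Wnt receptors, averaged 1.89 units after ATP and 15.3 units in Control, 8.11-fold lower. Its family member Dkk3 averaged 127 units after ATP and 249.5 units in Control, 1.96-fold lower and just within 2-fold. Both Dickkopf genes of the motility group thus lay on the same side. Slit2, the ligand of ROBO receptors that repels axons and migrating cells, averaged 13.3 units after ATP and 36.7 units in Control, 2.76-fold lower. Fstl3, a secreted antagonist of activin, averaged 50.7 units after ATP and 88.3 units in Control, 1.74-fold lower.

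The neurotrophic factors went in different directions. Bdnf, the ligand of TrkB, averaged 17.6 units after ATP and 39.4 units in Control, 2.24-fold lower, and all 6 of its listed transcripts were past 2-fold lower. Bdnf-011, Bdnf-005, Bdnf-004 and Bdnf-010 shared a ratio of 0.447, and Bdnf-009 and Bdnf-008 shared one of 0.357. The 6 transcripts therefore cannot be read as 6 separate observations. Gdnf, the ligand of GFRA1 and RET, averaged 46.1 units after ATP and 27.7 units in Control, 1.67-fold higher. Its receptor gene Ret, from a list of guidance receptors and ligands, averaged 14.2 units after ATP and 8.73 units in Control, 1.63-fold higher. Ligand and receptor were thus on the same side, both within 2-fold. Scg2, the granin from which the neuropeptide secretoneurin is cut, averaged 115.2 units after ATP and 48.4 units in Control, 2.38-fold higher, and was the guidance gene with the largest ratio.

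**Figure D3:**
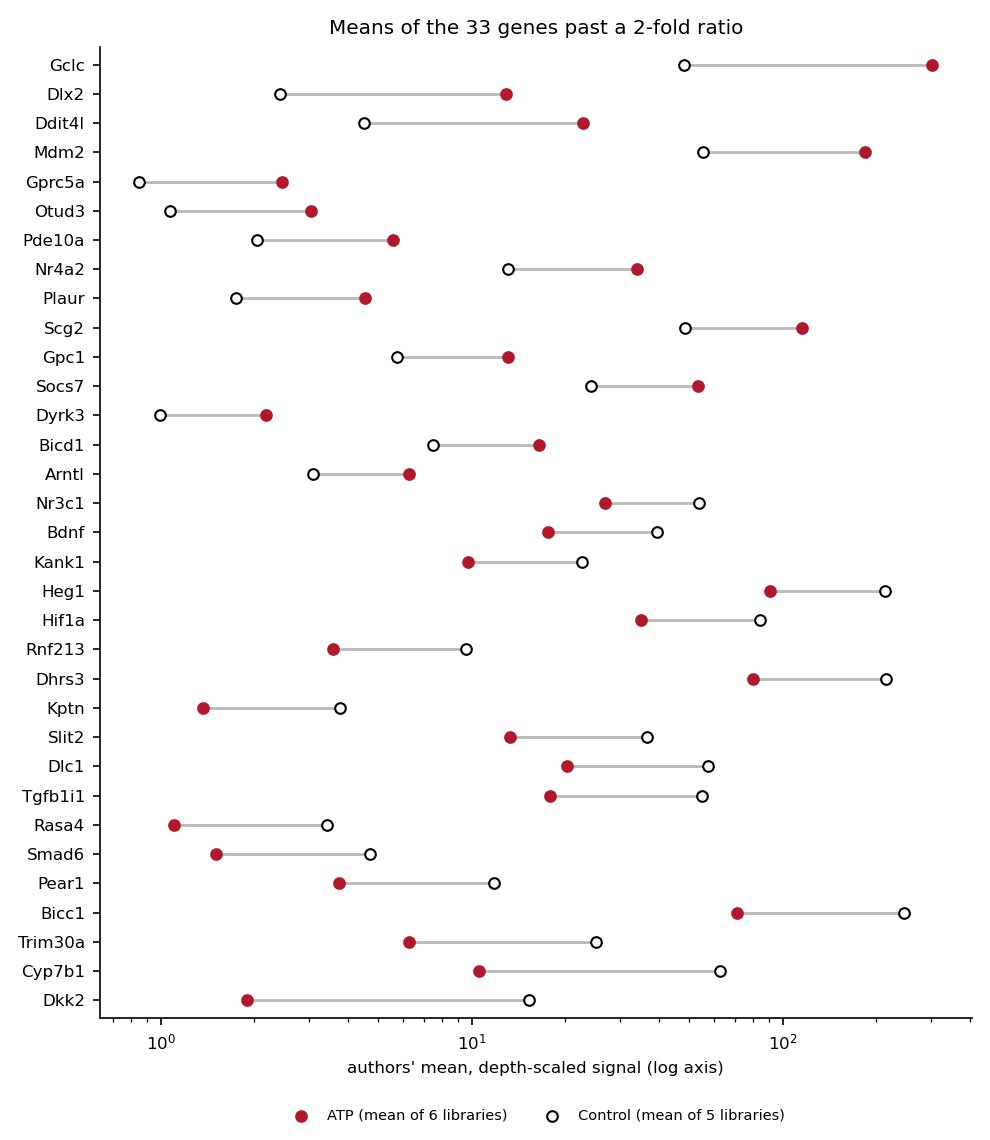
The authors' ATP mean (filled) and Control mean (open) in depth-scaled units on a log axis for the 33 genes past 2-fold, ordered from Gclc, 6.27-fold higher, at the top to Dkk2, 8.11-fold lower, at the bottom. Several pairs at both ends of the order lie below 10 units, among them Gprc5a and Rasa4.

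The 20 genes of the cytoskeleton and nuclear envelope were mostly on the higher side, 15 higher and 5 lower. Few were far from 1, with 1 past 2-fold higher and 3 past 2-fold lower. In the 1874 genes the shares were 49.0% with a higher mean, 18.3% past 2-fold higher and 30.0% past 2-fold lower. The GAPs were split. Dlc1, a GAP at focal adhesions, averaged 20.2 units after ATP and 57.3 units in Control, 2.84-fold lower. Rasa4, a calcium-regulated Ras GAP, averaged 1.1 units after ATP and 3.43 units in Control, 3.11-fold lower. Rasa3, a GAP of Ras and Rap, averaged 45.5 units after ATP and 85.0 units in Control, 1.87-fold lower. Rasa2 was on the other side at 32.9 units after ATP and 18.4 units in Control, 1.79-fold higher. The GAP genes Arhgap35 and Arhgap12 were also on the higher side, at 1.52-fold and 1.41-fold.

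Bicd1, an adaptor that links cargo to the motor dynein, was the cytoskeleton gene past 2-fold higher, with 16.4 units after ATP and 7.53 units in Control (2.18-fold). Kptn, an actin-associated protein, averaged 1.37 units after ATP and 3.77 units in Control, 2.75-fold lower, on a total of 27.1. Fam89b, an adaptor with leucine repeats, averaged 29.1 units after ATP and 15.0 units in Control, 1.94-fold higher.

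The nuclear lamina genes were on the higher side. Lmna, which encodes the A-type lamins, averaged 257 units after ATP and 164 units in Control, 1.57-fold higher. Emd, whose protein emerin binds lamin at the inner nuclear membrane, averaged 91.6 units after ATP and 56.8 units in Control, 1.61-fold higher. Lemd3, which encodes the related membrane protein MAN1 and was singled out after its values were seen, averaged 19.1 units after ATP and 10.1 units in Control, 1.90-fold higher. All 3 genes were past 1.5-fold and within 2-fold. Pak1ip1, an interaction partner of the kinase PAK1, averaged 49.0 units after ATP and 34.8 units in Control, 1.41-fold higher. Ivns1abp, a kelch protein, averaged 38.0 units after ATP and 35.2 units in Control, a ratio of only 1.08. Of the remaining genes, the focal adhesion scaffold Git1, the adaptor Nck2, the kinase Mark3, the phosphatase regulator Phactr4 and the scaffold Homer3 ranged from 1.24-fold higher (Mark3) to 1.74-fold higher (Homer3). Palm, a lipid-anchored protein of the plasma membrane, was 1.87-fold lower.

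Of the 19 genes of transcription and its control, 13 had a higher mean after ATP and 6 a lower one, with 3 past 2-fold higher and 2 past 2-fold lower. In the 1874 genes the shares were 49.0% with a higher mean, 18.3% past 2-fold higher and 30.0% past 2-fold lower. Dlx2, a homeobox factor of migrating interneuron precursors, averaged 12.9 units after ATP and 2.42 units in Control, 5.34-fold higher. Nr4a2, the orphan nuclear receptor NURR1 and an early-response gene, averaged 34.1 units after ATP and 13.1 units in Control, 2.6-fold higher. Arntl, the clock factor BMAL1, averaged 6.29 units after ATP and 3.09 units in Control, 2.04-fold higher. The steroid-binding nuclear receptor of the group lay on the other side of 1 from Nr4a2. Nr3c1, the glucocorticoid receptor, averaged 26.8 units after ATP and 53.6 units in Control, 2.0-fold lower.

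Genes of the hypoxia-inducible factor pathway in the set were on both sides. Hif1a, the oxygen-regulated subunit, averaged 35.1 units after ATP and 84.7 units in Control, 2.42-fold lower, and its 3 listed transcripts were all past 2-fold lower. Of these, Hif1a-001 is not listed as significant by the authors. Egln1, the prolyl hydroxylase that marks HIF subunits for degradation, averaged 53 units after ATP and 77.8 units in Control, 1.47-fold lower. Hif1an, the hydroxylase that blocks HIF activity, was higher at 19.9 units after ATP and 14.4 units in Control, 1.38-fold. Of a list of 12 further genes of the pathway, the depth-scaled tables held Epas1, Bnip3 and Adm, and all 3 were past 2-fold lower, in tables where 30.0% of all genes were. Adm, the vasoactive peptide adrenomedullin, averaged 15.7 units after ATP and 94.0 units in Control, 5.98-fold lower.

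Other transcription genes stayed within 2-fold. Hdac7, a class IIa histone deacetylase, averaged 46.7 units after ATP and 76.6 units in Control, 1.64-fold lower. Zbtb7a, a zinc finger repressor, averaged 184 units after ATP and 138 units in Control, 1.33-fold higher. Elf1, an ETS factor, averaged 54.6 units after ATP and 37.3 units in Control, 1.46-fold higher. Cdk11b, a kinase of transcription and splicing, averaged 61.1 units after ATP and 40.3 units in Control, 1.52-fold higher. The rest ranged from Atxn1, a co-repressor that was 1.86-fold lower, to Rrn3, an initiation factor of RNA polymerase I that was 1.66-fold higher. Among them Snai2, which encodes the migration-linked repressor SLUG, was 1.63-fold lower, while Atxn7, Cnot9, Ing2, Mllt3 and Trp53 were on the higher side.

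Trp53 and its ubiquitin ligase Mdm2 are both in the set. Mdm2 averaged 183 units after ATP and 55.6 units in Control, 3.30-fold higher, and each of its 3 listed transcripts was past 2-fold higher. The authors list Mdm2-003, the transcript used, as significant but not Mdm2-001 or Mdm2-002. Trp53 averaged 4.43 units after ATP and 3.62 units in Control, 1.22-fold higher, with its second transcript by total at 4.55 units after ATP and 1.12 units in Control, 4.06-fold higher. All 4 listed Trp53 transcripts were on the higher side, and their sum was 1.72-fold higher. The authors list the second transcript, but not the one used, as significant.

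The 13 genes of the ubiquitin and SUMO systems had 9 higher and 4 lower means after ATP, beside 49.0% higher in the 1874 genes. Otud3, a deubiquitinase, averaged 3.05 units after ATP and 1.07 units in Control, 2.84-fold higher. Trim30a, a TRIM protein with near paralogs that could share its reads, averaged 6.30 units after ATP and 25 units in Control, 3.97-fold lower. Rnf213, a RING and AAA protein, averaged 3.58 units after ATP and 9.56 units in Control, 2.67-fold lower. The cullin scaffold Cul3 (44.8 units after ATP and 29.5 units in Control) and its adaptor Kctd6 were both on the higher side, at 1.52-fold and 1.84-fold. Also higher, by 1.33-fold to 1.55-fold, were the shuttle protein gene Ubqln1, the SUMO protease gene Senp2, and Zc3hc1, Rnf115 and Bfar. Rnf113a2, which belongs to a family with near-identical copies, was 1.64-fold lower, and its assignment is uncertain for that reason.

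No gene among the 12 kinases and growth regulators was past 2-fold lower, and 4 were past 2-fold higher. Of the 1874 genes, 30.0% were past 2-fold lower and 18.3% past 2-fold higher. Ddit4l, the mTOR inhibitor REDD2, averaged 22.7 units after ATP and 4.50 units in Control, 5.05-fold higher. Sesn1, another inhibitor of mTOR complex signalling, was lower, at 4.99 units after ATP and 8.96 units in Control (1.80-fold). The growth inhibitors therefore did not share a direction. Pde10a, a phosphodiesterase that degrades cyclic nucleotides, averaged 5.59 units after ATP and 2.04 units in Control, 2.74-fold higher. Socs7, of the family that restrains cytokine receptors, averaged 53.5 units after ATP and 24.2 units in Control, 2.21-fold higher. Dyrk3, a dual-specificity kinase, averaged 2.17 units after ATP and 0.994 units in Control, 2.19-fold higher, on the smallest total of the 109 genes (18). Its relative Dyrk1a was 1.5-fold higher.

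Within 2-fold, Grb10, an adaptor that restrains the insulin receptor, averaged 152 units after ATP and 235 units in Control, 1.55-fold lower. Riok3, a RIO kinase, averaged 92.9 units after ATP and 62.3 units in Control, 1.49-fold higher. The Hippo pathway gene Wwc2 averaged 64.1 units after ATP and 91.3 units in Control, 1.42-fold lower. Prkaa2, a catalytic subunit of the energy sensor AMPK, was 1.90-fold higher, the phosphatase gene Ppm1b 1.29-fold higher, and Pik3ip1, an inhibitor of PI3 kinase, 1.73-fold lower.

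The 10 genes of Wnt, TGF-beta and Notch signalling were evenly split, 5 higher and 5 lower, with a median log2 ratio of 0.03. Of the 1874 genes, 49.0% had a higher mean. Smad6, the inhibitory SMAD of BMP signalling, averaged 1.51 units after ATP and 4.71 units in Control, 3.12-fold lower, and was alone past 2-fold. Smurf1, a ubiquitin ligase that acts on SMADs, averaged 80.7 units after ATP and 52.9 units in Control, 1.53-fold higher. Ppm1a, a phosphatase that acts on SMADs, averaged 86.7 units after ATP and 60.7 units in Control, 1.43-fold higher. The TGF-beta genes were thus on both sides. The casein kinases of the Wnt pathway lay closest to 1. Csnk1a1 averaged 227 units after ATP and 241 units in Control, 1.06-fold lower, and Csnk1e 42.1 units after ATP and 38.3 units in Control, 1.1-fold higher. Nlk, a kinase of the same pathway, was 1.33-fold higher and Rita1, a Notch antagonist, 1.51-fold higher. The Wnt antagonist Dact3, the Notch glycosyltransferase Rfng and the APC-binding protein gene Amer1 were 1.86-fold, 1.76-fold and 1.46-fold lower.

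Calcium, redox and metabolism genes held the highest ratio of the set and were otherwise nearly all lower, with 2 higher and 11 lower. Of the 1874 genes, 49.0% had a higher mean. Gclc, the catalytic subunit of the enzyme that limits glutathione synthesis, averaged 303 units after ATP and 48.2 units in Control, 6.27-fold higher. Slc35f6, the other gene on the higher side, averaged 25.5 units after ATP and 18 units in Control, 1.41-fold. Cyp7b1, which hydroxylates oxysterols such as the chemoattractant precursor 25-hydroxycholesterol, averaged 10.6 units after ATP and 62.7 units in Control, 5.94-fold lower. Dhrs3, a reductase that lowers retinoic acid formation, averaged 80.2 units after ATP and 215 units in Control, 2.69-fold lower, and its 3 listed transcripts were all past 2-fold lower. Of these, Dhrs3-001 is not listed as significant by the authors.

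The calcium-binding proteins shared the lower side. Calr, the endoplasmic reticulum chaperone calreticulin, averaged 573 units after ATP and 914 units in Control, 1.59-fold lower, on the largest total of the set (8006). Sri, which encodes sorcin, averaged 35.1 units after ATP and 55.4 units in Control, 1.58-fold lower. Casq2, a calcium store protein best known from cardiac muscle, was 1.91-fold lower. The mitochondrial genes were on the same side. Higd1a, a hypoxia-induced mitochondrial protein, averaged 99.8 units after ATP and 189 units in Control, 1.89-fold lower. Vdac2, a channel of the outer mitochondrial membrane, averaged 124 units after ATP and 165 units in Control, 1.33-fold lower. Nlrx1, Acaa2, Wwox and Tmem14a were 1.61-fold to 1.99-fold lower.

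Among the 5 genes of RNA and other roles, Bicc1, an RNA-binding protein with KH domains, averaged 71.5 units after ATP and 245 units in Control, 3.43-fold lower. Both of its listed transcripts were past 2-fold lower. G3bp1, a core protein of stress granules, averaged 117 units after ATP and 83.9 units in Control, 1.39-fold higher. Sac3d1 was 1.57-fold higher, and Pih1d1 and Lrrc14 were 1.41-fold and 1.39-fold lower.

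For 61 of the 109 genes the tables list 1 transcript, and for 48 they list several, up to 6. In the genes with several, the transcript used carried a median of 74.6% of the gene's total, and at least 39.0%. For 15 genes the listed transcripts lay on both sides of a ratio of 1, and for 11 of them by more than 1.1-fold each way. The largest contrast was in Nedd4, a ubiquitin ligase of receptors and channels. Nedd4-001, with the largest total, averaged 464 units after ATP and 579 units in Control, 1.25-fold lower. Nedd4-007 averaged 16.7 units after ATP and 2.78 units in Control, 6.00-fold higher, and Nedd4-005 averaged 1.41 units after ATP and 3.51 units in Control, 2.49-fold lower. Of the Nedd4 transcripts, only Nedd4-005 is among those that the authors list as significant, and Nedd4-007 is not. Nedd4-008 and Nedd4-009 were 1.15-fold and 1.44-fold lower, so 1 of the 5 transcripts was on the higher side.

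Calr showed the same kind of split at high signal. Calr-004 averaged 112 units after ATP and 73.3 units in Control, 1.53-fold higher, against the lower ratio of Calr-001 given above. The authors list Calr-001 but not Calr-004 as significant. Csnk1a1 had 2 transcripts on the higher side, Csnk1a1-002 and Csnk1a1-009, both 1.54-fold higher, and Csnk1a1-010, Csnk1a1-005 and Csnk1a1-006 were 1.64-fold, 1.87-fold and 1.73-fold lower. The near-1 ratio of its main transcript therefore stood beside others of either direction. In Ing2, a reader of chromatin marks, Ing2-001 averaged 12.6 units after ATP and 8.74 units in Control, 1.45-fold higher, and Ing2-003 averaged 1.15 units after ATP and 5.11 units in Control, 4.43-fold lower. Their summed ratio was 0.997, which is no difference.

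Smaller splits were seen in further genes. In the GAP genes, Arhgap12-008 was 1.41-fold higher and Arhgap12-006 1.73-fold lower, and Rasa2-001 was 1.79-fold higher and Rasa2-006 1.55-fold lower. In Ppm1b, Ppm1b-202 and Ppm1b-204 were 1.29-fold and 1.63-fold higher and Ppm1b-201 was 1.57-fold lower. In Mllt3, Mllt3-003 and Mllt3-006 were 1.48-fold and 1.997-fold higher and Mllt3-001 was 1.33-fold lower. Lrrc14-001 was 1.95-fold higher, and Lrrc14-003 and Lrrc14-007 were 1.39-fold and 1.42-fold lower. When transcripts are summed, Arhgap12, Rasa2, Ppm1b and Mllt3 stay on the higher side, at 1.30-fold, 1.70-fold, 1.20-fold and 1.24-fold. Lrrc14 instead turns from lower to 1.03-fold higher, so its direction rests on which transcripts are taken. Rnf115-001 was 1.46-fold higher and Rnf115-002 1.16-fold lower, and Rfng-002 was 1.76-fold lower and Rfng-001 1.04-fold higher. The transcript used for Phactr4 was 1.6-fold higher, while Phactr4-001 and Phactr4-004 had ratios of 1.0 and 0.956.

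Some genes past 2-fold were affected too. Arntl-003 was 2.04-fold higher and Arntl-004 had 1.16 units after ATP and 1.69 units in Control, 1.45-fold lower, and the sum of both was 1.56-fold higher. Bicd1-003 and Bicd1-001 were 2.18-fold and 1.83-fold higher and Bicd1-009 1.08-fold lower, and the sum was 1.88-fold higher. Both genes are therefore within 2-fold when their transcripts are summed. Tgfb1i1-012 was 3.08-fold lower, Tgfb1i1-002 1.88-fold lower and Tgfb1i1-001 1.07-fold higher, with a summed ratio of 0.398. In 9 genes within 2-fold, Nedd4, Ing2 and Trp53 included, another transcript was past it. Among the rest, Lmna-001 averaged 77.5 units after ATP and 12.7 units in Control, 6.10-fold higher, beside the 1.57-fold of Lmna-006. The authors list Lmna-006 but not Lmna-001 as significant. Emd-002 was 2.98-fold, Ivns1abp-003 4.30-fold and Fam89b-001 2.04-fold higher, each on the same side as the transcript used. Wwc2-002 was 3.23-fold lower and Fstl3-001 2.19-fold lower, each on the same side as the transcript used.

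**Figure D4:**
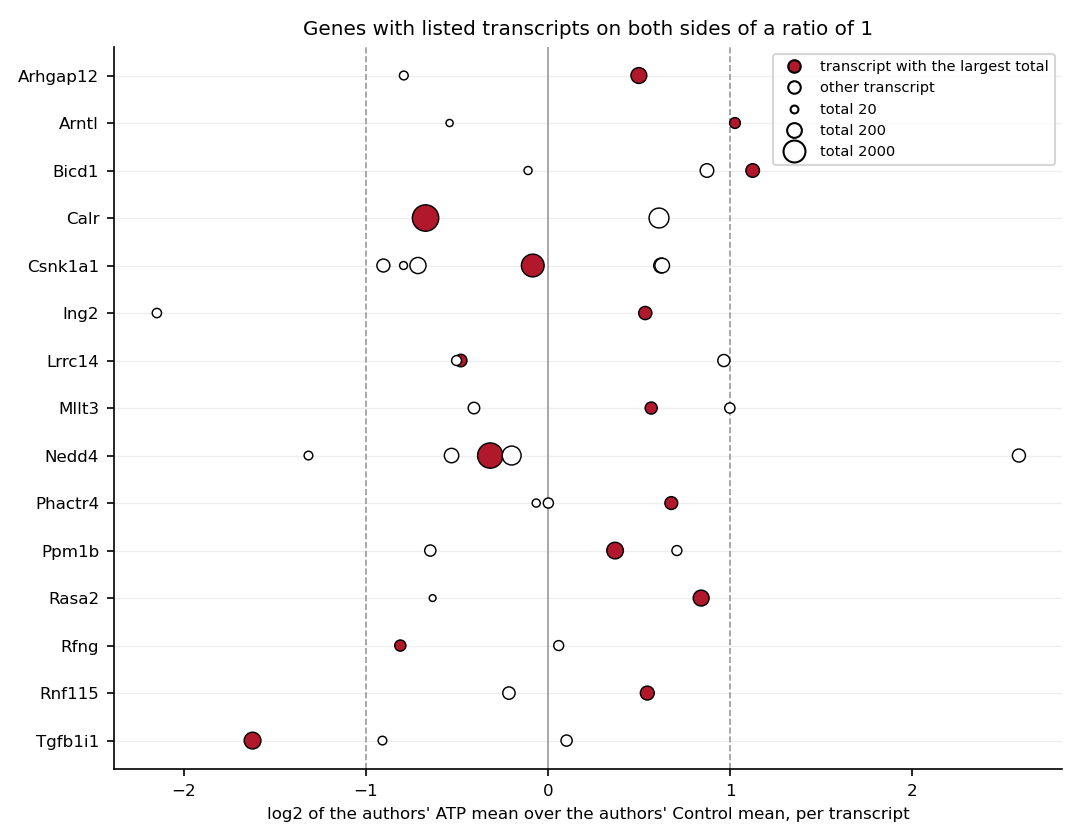
Log2 of the authors' ATP mean over the authors' Control mean (horizontal axis) for each listed transcript of the 15 genes whose transcripts lie on both sides of 0, with the transcript of the largest total filled and the size of each point growing with the total. Nedd4-007, which the authors do not list as significant, lies at 2.59, far from the main Nedd4 transcript at -0.32. Ing2-003 lies at -2.15.

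The tables hold only part of the wider pathways, and a gene without a row has no value. Of 22 genes of integrins and the focal adhesion core, 6 had a depth-scaled row, 1 higher and 5 lower after ATP, and 4 of the 5 were past 2-fold lower. Vcl, which encodes the focal adhesion protein vinculin, averaged 6.43 units after ATP and 22.1 units in Control, 3.44-fold lower. Itgb5, an integrin subunit that binds vitronectin, averaged 34.9 units after ATP and 97.6 units in Control, 2.80-fold lower. Itga5, the subunit of the fibronectin receptor, was the exception, with 12.2 units after ATP and 7.57 units in Control, 1.62-fold higher. Of the focal adhesion genes among the 109, Tgfb1i1, Kank1, Kank2 and Dlc1 were lower and the scaffold gene Git1 was 1.44-fold higher.

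Of 23 guidance receptors and ligands outside the 109 genes, 6 had a row, 1 higher and 5 lower, with Ephb2 and Sema3c past 2-fold lower. Ephb2, an Eph receptor, averaged 9.83 units after ATP and 35.0 units in Control, 3.56-fold lower, and Sema3c, a semaphorin, averaged 37.0 units after ATP and 77.6 units in Control, 2.10-fold lower. Of 17 Wnt receptors and Dickkopf genes, 4 had a row, and the receptors Fzd2, Fzd4 and Fzd7 were 2.95-fold, 2.81-fold and 2.25-fold lower, while the scaffold gene Axin1 was 1.55-fold higher. In each of these lists the lower side held more genes than the higher, in tables where 30.0% of all genes were past 2-fold lower.

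Markers of cell types could be read only in part. Of the markers of enteric glia, Gfap and Nes had a row in the gliosis table alone and Sox10 and S100b had none, so the glial label could not be checked on the depth-scaled values. Of 9 markers of fibroblasts and smooth muscle, 2 had a depth-scaled row and both were lower. Pdgfrb averaged 18.4 units after ATP and 68.8 units in Control, and Col1a2 averaged 2.06 units after ATP and 8.18 units in Control. Their part in the lower means of adhesion and guidance genes was not tested. Of 7 neuronal markers, Uchl1 alone had a row, at 155 units after ATP and 82.1 units in Control, and its part in the higher genes was not tested. No marker of macrophages or endothelium had a depth-scaled row.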

How the data were processed

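RNA of msEGC cultures was measured in 6 ATP and 5 Control libraries. Per the labels, libraries were made with the QuantSeq 3′ kit, and Partek is named in the submitters' processing notes. The authors deposited 6 tables, with an aligner, build, annotation and scaling not given in the sources used here. Of these, 5 list transcripts. In 4 of them the deposited group means and totals are a signal that appears scaled for library depth, and in the gliosis table the authors' values appear to be unscaled estimated counts. The gliosis table was used for membership and for the scale alone. Over 49 transcripts held by both kinds of table, 1 unit of signal was worth 11.7 estimated counts in ATP (SD 0.539) and 10.1 in Control (SD 0.217). The deposited totals equalled the sum of the ATP mean over 6 and the Control mean over 5 libraries in all 2337 depth-scaled transcripts, to a relative 1e-06. Gfap, whose row came from the gliosis table, was left out of the 1874 genes. In every transcript table, the 4 columns of the authors' own comparison (p-value, adjusted p-value, ratio, fold change) and the table of GO terms were not used. The authors' table of significant genes lists the transcript used for 77 of the 109 genes.

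Ratios of the authors' means were computed with Python 3.11.15, pandas 2.3.3 and NumPy 2.4.6, plotted with matplotlib 3.10.9, and the steps were tested on simulated data. No filter or pseudocount was used. The tables hold no library values, so no test was made. The members, role groups and gene lists were chosen with earlier results of these data known. Means are given for genes past 2-fold, for some near it and for up to 5 others per role group by total. For genes with transcripts on both sides of 1, each transcript is given by its means or by its ratio alone. Other genes are given by ratio or range, and those singled out after their values were seen are named as such. Pathway and marker genes given as examples were chosen after their values were seen. Alternatives were a pseudocount of 1, summed transcripts, every transcript and a total of at least 100. Folds of 1.5 and 3, centring and other sets of members were also tried. Added after seeing the data was a shift of all ratios by the median factor between the unscaled and scaled values.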

Additional observations from a re-analysis of the deposited data

How the results depend on the processing

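Against 15 genes at least 2-fold higher, 18 at least 2-fold lower and a median log2 ratio of 0.41, a pseudocount of 1 gave 11 and 17, summed transcripts 13 and 18, and the set that includes the genes left out by name 15 and 20 of 112. Counting every listed transcript gave 25 and 35 of 190 with a median of 0.12, and all genes of the motility table gave 23 and 35 of 176. With a total of at least 100 the higher count was 8 of 85. A fold of 1.5 gave 37 and 41, and a fold of 3 gave 4 and 8. Centring, on a median near which few of the 1874 ratios lie, gave 44 and 9 with a median of 0.89. Shifting all ratios by the factor between unscaled and scaled values, an alternative chosen after seeing the data, gave a median of 0.62. With summed transcripts the median of the RNA and other group turned to 0.045, because Lrrc14 is then above 1, and it rests on 5 genes. The other group medians kept their sign under summing and the pseudocount. No paired analysis was possible because the tables hold no values per library, and for the same reason no library was left out. Depth per library is unknown, so the error of a mean cannot be given.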
